A study of Mus musculus with 24 samples.

Results

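The comparison described here is that of embryonic stem cells (ESCs) with a slow RNA polymerase II against wild-type (WT) ESCs, which took 6 of the 24 sequenced samples. The members were the genes of the deposited count table that passed the filter on low counts, had an annotated chromosome and did not lie on chromosomes 8, 15 or Y, which left 14810 of 16627 tested genes. Of the others, 308 had no annotated chromosome and 1509 lay on the 3 chromosomes left out. For splicing, the members were 18250 exon, 65309 intron and 19567 splice-site events outside the same chromosomes, out of 20151, 72139 and 22046 events that passed the coverage filters in all 6 samples.

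The study introduced the R749H substitution into Polr2a, which encodes the largest subunit of RNA polymerase II, to ask how the rate of transcription elongation affects gene expression and splicing during neural differentiation. Poly(A)+ RNA was sequenced from WT (wt/wt) and homozygous mutant (slow/slow) cells as ESCs and at 3 later stages, with 3 replicates per group and stage. By the labels, both ESC groups grew on gelatin in 2i medium, which held 1 uM of the MEK inhibitor PD0325901, 3 uM of the GSK3 inhibitor CHIR99021 and 100 U/ml of leukemia inhibitory factor (LIF). The study's methods also describe routine culture without feeder cells in serum with LIF, with 2i used before differentiation, so that the medium of the sequenced ESCs rests on the labels. The mutant cells came from E14 ESCs by successive gene targeting of the alleles, with removal of the selection cassette by Flp recombinase, and no more than 1 line of each genotype was named for the sequencing. The effect of the polymerase therefore cannot be told apart from any other difference between these lines. The study's methods name independent differentiation experiments, but the labels do not say whether the ESC replicates were separate cultures. The p-values rest on the spread between replicates estimated over all stages, which for the ESCs may be technical.

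ESCs in 2i medium are held in the naive state of pluripotency, in which MEK signalling is blocked, Wnt signalling is active and LIF acts through STAT3. Signals of the Nodal, BMP, FGF and Wnt families move the cells towards the germ layers when these conditions are lifted. The speed at which RNA polymerase II elongates sets the time in which splice sites of a nascent transcript compete, and long genes spend the longest under an elongating polymerase.

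The ESC libraries held 35249977 to 70212898 counts. Levels are given as CPM, the count relative to the library total scaled by TMM. All 7 ESC markers were detected, and their summed level was 6180 to 6655 CPM in WT and 5601 to 6137 in slow/slow cells. Markers of other cells were low: primitive endoderm markers summed to 14.2 to 16.6 CPM over the 6 libraries with Dab2 under 0.1 in all of them, trophectoderm markers to 7.9 to 10.5, mesendoderm markers to 18.2 to 25.9 with Mesp1 under 0.1, and fibroblast markers to 5.05 to 10.0 with Postn, Dcn and Lum under 0.1. Neural progenitor markers summed to 18.7 to 20.1 CPM in WT and 31.1 to 33.7 in slow/slow cells, neuron markers to 201 to 245 and 312 to 373, and markers of two-cell-like cells to 8.87 to 10.1 and 43.0 to 48.0. The marker sums cover all chromosomes, and the neuron sum includes Tubb3, which lies on chromosome 8. In bulk samples, fewer cells of a type and less RNA per cell cannot be told apart. The third WT library stood apart in base composition among genes with a mean of at least 5 CPM. Relative to each gene's mean, the median of its genes of low GC content lay 0.41 (log2) below that of its genes of high GC content. In the other 5 libraries the difference of low from high GC was -0.04 to 0.22. Values without the third WT library are given beside the list medians and counts that it moved by over 1.5 times. The chromosomes left out moved as wholes, with a median log2 change of 0.45 on chromosome 8, -0.60 on chromosome 15 and -6.13 on chromosome Y.

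Polr2a itself measured 738, 687 and 725 CPM in the 3 WT libraries and 763, 674 and 683 CPM in the 3 slow/slow libraries. The groups overlapped and the gene was not called changed (log2 change -0.02 ± 0.16 SE, FDR 0.944). A point mutation need not alter the level of its transcript, so that this value does not test the genotype labels. Throughout, values per library are CPM in the order of replicates 1, 2 and 3, a log2 change is that of the slow/slow relative to the WT group and is given with its SE, and FDR is the Benjamini-Hochberg adjusted p of edgeR's quasi-likelihood test over all 16627 genes. The changed, or called, genes are those with an FDR under 0.05.

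Of the 14810 genes, 5639 (38.1%) changed, of which 2524 (17.0%) rose and 3115 (21.0%) fell in slow/slow ESCs. The shares of 17.0% and 21.0% are the background for the list counts below. The median log2 change over all of them was -0.02, and the median fold was 1.42 among the genes that rose and 1.91 among those that fell. At least 2-fold changes were more often falls, with 457 rises (3.09%) and 1470 falls (9.93%). In 1775 rising and 2143 falling genes the call was kept when any 1 of the 6 ESC libraries was omitted. Without the third WT library 4835 genes were called, 2300 higher and 2535 lower. The variance was estimated over all stages, and without the libraries of the PSA-NCAM+ stage 8496 genes were called. The lowest slow/slow library lay above the highest WT library in 3992 genes (27.0%), and the highest slow/slow library below the lowest WT library in 4639 (31.3%), which is the background for the single genes below.

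The large rises with a level of at least 5 CPM included inhibitors of Nodal signalling. The neighbouring genes Lefty2 (chr1:180893108-180899103 in GRCm38) and Lefty1 (chr1:180935022-180938400) encode secreted inhibitors of Nodal. Lefty1 measured 1.0, 1.43 and 1.31 CPM in WT and 21.8, 28.5 and 24.7 CPM in slow/slow cells, a rise of 4.34 ± 0.37 (FDR 1.91e-08), and Lefty2 rose by 4.47 ± 0.20 (FDR 3.26e-12). Both were at single-digit CPM in every WT library and above 20 CPM in every slow/slow library.

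Of the other large rises, 3 adjoining genes of chromosome 5 moved together. Evc (chr5:37289098-37336894) and Evc2 (chr5:37338499-37425055) encode partner proteins at the base of the primary cilium that act in Hedgehog signalling. Evc measured 3.19, 2.35 and 3.18 CPM in WT and 24.1, 24.9 and 21.9 CPM in slow/slow cells (3.01 ± 0.22, FDR 2.25e-09). Evc2 measured 5.03, 4.45 and 6.23 against 36.2, 38.0 and 34.8 CPM (2.79 ± 0.10, FDR 6.13e-13). Crmp1 (chr5:37241940-37292133), a protein of axon guidance, rose by 2.71 ± 0.40 (FDR 1.73e-05), but it overlaps Evc on the opposite strand. Use of the strand in counting was not stated, and reads of the overlap could count for either gene.

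Gap43 and Elavl3, which are best known from neurons, were also among the named rises. Gap43, a growth cone protein, measured 1.0, 0.832 and 1.1 CPM in WT and 6.94, 7.71 and 8.76 CPM in slow/slow cells (2.97 ± 0.28, FDR 8.14e-08). Elavl3, a neuronal RNA-binding protein, measured 1.55, 1.32 and 1.72 against 10.3, 9.86 and 9.69 CPM (2.68 ± 0.33, FDR 2.29e-06). In both genes the groups were apart and every library stayed near or below 10 CPM. Ttll4, an enzyme that adds glutamate chains to tubulin, was higher in level, with 20.3, 19.3 and 19 CPM in WT and 129, 123 and 130.2 CPM in the mutant (2.70 ± 0.15, FDR 7.57e-11). The remaining named rises were Abcb5, an ABC transporter (3.95 ± 0.42), AC125149.6 on an unplaced scaffold (3.43 ± 0.38), Miip (3.37 ± 0.17), Enox1 (3.37 ± 0.34), the growth factor gene Fgf1, which overlaps Arhgap26 on the opposite strand (3.09 ± 0.29), and Zscan4d, a gene of the two-cell embryo (2.69 ± 0.32).

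The named falls included the ion channel gene P2rx7 and the protease gene Htra1. P2rx7 (chr5:122643911-122691432), an ATP-gated ion channel, measured 131, 129.7 and 120.1 CPM in WT and 10.1, 7.81 and 7.65 CPM in slow/slow cells. It fell by 3.90 on the log2 scale (SE 0.15, FDR 6.71e-13), from the highest WT level of the 15 named falls. Capn6, a member of the calpain family, measured 13, 12.6 and 12.6 against 0.678, 0.798 and 0.96 CPM (-3.98 ± 0.40, FDR 1.77e-07). Ceacam20, an adhesion molecule of the immunoglobulin family, measured 8.52, 8.09 and 7.6 against 0.407, 0.532 and 0.495 CPM (-4.07 ± 0.35, FDR 2.22e-08). Both genes were thus below 1 CPM in every slow/slow library.

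Htra1, a secreted serine protease, measured 34.3, 36.7 and 42.1 CPM in WT and 4.11, 4.44 and 3.41 CPM in slow/slow cells (-3.23 ± 0.19, FDR 1.03e-10). Tuba3a, an alpha-tubulin known from testis, measured 34.5, 36.1 and 41.4 against 3.07, 3.25 and 3.44 CPM (-3.52 ± 0.23, FDR 4.77e-10). Lcp1, an actin-bundling protein of blood cells, measured 20.9, 21.1 and 19.6 against 1.88, 1.8 and 1.95 CPM (-3.45 ± 0.30, FDR 2.54e-08). The libraries of each group lay close together in all 3 genes. Mest, an imprinted gene expressed from the paternal allele, fell from 15.5, 17.2 and 16.5 to 1.02, 1.21 and 1.08 CPM, but its SE, from a spread estimated over all stages, was wide (-3.89 ± 1.08, FDR 0.00671) and it overlaps Copg2 on the opposite strand. The other named falls were Tmem40 (-3.87), the adenylosuccinate synthase Adssl1 (-3.80), the prostaglandin transporter Slco2a1 (-3.70), the somatostatin receptor Sstr5 (-3.50), the complement component C2 (-3.45), Dner (-3.29), the aldehyde oxidase Aox3 (-3.26) and F3, the tissue factor of blood coagulation (-3.12). The groups did not overlap in any of the 29 named rises and falls, which were chosen for the size of this difference.

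**Figure D1:**
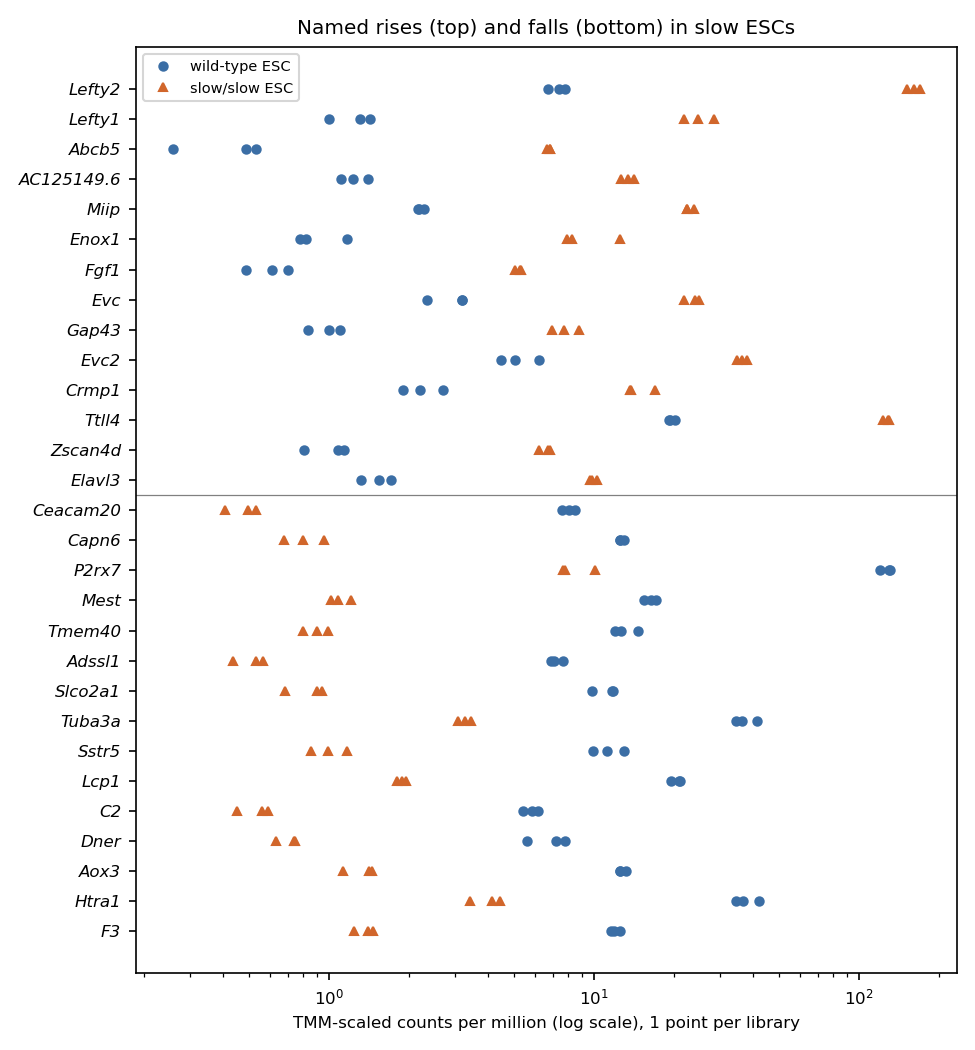
Expression of the 14 named rises (upper) and the 15 named falls (lower) in TMM-scaled CPM on a log axis, with 1 point per library for 3 WT and 3 slow/slow ESC libraries. No gene has overlapping groups; P2rx7 falls from above 120 to about 10 CPM and Lefty1 rises from about 1 to above 21 CPM.

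Within the Nodal pathway, ligands, inhibitors and targets did not move as 1 group, with 7 of 21 tested members higher, 3 lower and a median of 0.04. The ligand Nodal measured 137, 149.5 and 166 CPM in WT and 124, 143 and 126 CPM in slow/slow cells, with overlapping groups (-0.20 ± 0.11, FDR 0.137). Among the targets, the T-box factor Eomes measured 6.2, 6.8 and 6.65 against 12.1, 13.5 and 10.4 CPM and rose (0.88 ± 0.21, FDR 0.002). The homeobox gene Gsc measured 9.68, 11.3 and 12.8 against 4.54, 4.62 and 3.34 CPM and fell (-1.43 ± 0.25, FDR 1.10e-04). Smad7, an intracellular inhibitor of the pathway, measured 122, 116 and 117 against 68.4, 64.3 and 68.8 CPM and also fell (-0.82 ± 0.24, FDR 0.0111). The extracellular inhibitors Lefty1 and Lefty2 were thus up while this intracellular one was down.

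Genes of BMP signalling changed often and in both directions, with 10 of 25 higher and 8 lower. Their median was 0.13 with all libraries but -0.07 without the third WT library and -0.11 in a fit of the ESC samples alone. The ligand gene Bmp4 measured 6.03, 6.6 and 7.67 CPM in WT and 25.7, 30.5 and 28.2 CPM in slow/slow cells (2.06 ± 0.40, FDR 3.52e-04), though the gene overlaps Gm15217 on the opposite strand. Bmp2, a related ligand, stayed below 1 CPM in every library and fell (-1.69 ± 0.46, FDR 0.00546). The Id genes, direct targets of BMP signals that block basic helix-loop-helix factors, split. Id1 measured 4.0, 4.93 and 6.54 against 18.3, 21.2 and 17.8 CPM (1.89 ± 0.19, FDR 1.49e-07). Id3 measured 4.24, 6.86 and 6.47 against 16.4, 24.2 and 23.6 CPM (1.88 ± 0.26, FDR 8.15e-06). Id4 went the other way, from 12.5, 13.1 and 11.3 to 5.31, 5.2 and 4.37 CPM (-1.30 ± 0.18, FDR 1.18e-05). Msx2, a homeobox target of BMP, rose from 6.3, 6.2 and 7.82 to 21.3, 22.7 and 21.8 CPM (1.69, FDR 2.41e-05).

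Of 24 Wnt targets 8 were higher and 5 lower, with a median of -0.03 that became 0.11 once the trend on GC content was removed and 0.05 without the third WT library. Notum, a secreted enzyme that inactivates Wnt ligands, measured 33.9, 36.1 and 40.3 CPM in WT and 142, 141 and 129.8 CPM in slow/slow cells (1.90 ± 0.15, FDR 6.79e-09). Lef1, the transcription factor of the pathway, measured 0.729, 0.717 and 0.809 against 3.59, 3.93 and 3.62 CPM (2.30 ± 0.46, FDR 4.67e-04). Ccnd1, the cyclin of G1 phase, measured 82.2, 88.3 and 93.1 against 191, 215 and 195 CPM (1.19 ± 0.30, FDR 0.00345). These 3 genes rose in every slow/slow library, whereas Apcdd1, a membrane inhibitor of Wnt, fell from 30.0, 32.4 and 34.0 to 14.9, 13.6 and 13.8 CPM (-1.19 ± 0.12, FDR 2.05e-07). The classic feedback target Axin2 was not called (0.09, FDR 0.694).

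The FGF and ERK feedback list had 2 of 19 members higher and 5 lower, with a median of -0.06. Leaving out 1 library gave 1 to 2 higher and 3 to 5 lower, the fewest without the first or the third slow/slow library. Spry4, a feedback inhibitor of receptor tyrosine kinases, measured 1.0, 1.35 and 1.4 CPM in WT and 5.29, 6.53 and 5.6 CPM in the mutant (2.23 ± 0.18, FDR 1.29e-08). The ETS factors of the pathway were lower: Etv1 went from 13.4, 13.4 and 12.0 to 4.79, 5.11 and 5.6 CPM (-1.32 ± 0.24, FDR 2.17e-04) and Etv4 from 32.3, 35.0 and 40.4 to 13.8, 19.9 and 13 CPM (-1.20, FDR 0.0143). The ligand gene Fgf4 was not called (0.01, FDR 0.988). The LIF and STAT3 list had 0 of 15 members higher and 2 lower, the kinase gene Pim1 (-0.50, FDR 6.66e-05) and the feedback inhibitor Socs2 (-0.33, FDR 0.0479), and leaving out any 1 library left 1 of them. Lif itself was not called (-0.76, FDR 0.135).

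Hedgehog and Notch genes changed in both directions, and more of the retinoic acid genes fell than rose. In the Hedgehog list 3 of 14 were higher and 1 lower (median 0.15), or 2 and 1 without any library but the third WT one. Gli1, its transcription factor and target, measured 6.73, 6.89 and 6.85 CPM in WT and 18.2, 18.1 and 16.7 CPM in slow/slow cells (1.37 ± 0.10, FDR 2.04e-09), in a gene that overlaps Arhgap9. Its fellow member Boc, a co-receptor, fell from 11.3, 11.4 and 11.4 to 4.52, 4.54 and 4.95 CPM (-1.28, FDR 9.76e-05). In the Notch list 4 of 23 were higher and 4 lower in the full fit and without any 1 library. These shares of 17.4% each were near or below those over all genes (17.0% higher and 21.0% lower). The ligand gene Jag1 rose from 11.4, 10.7 and 10.3 to 24.8, 22.7 and 22.5 CPM (1.11, FDR 3.49e-04) and the receptor gene Notch3 fell from 78.1, 74.5 and 85.4 to 38.1, 36.1 and 32.1 CPM (-1.16, FDR 6.91e-06). In the retinoic acid list 1 of 22 was higher and 6 were lower (27.3%, against 21.0% of all genes). The lower ones included Dhrs3, an enzyme that turns retinal back to retinol (-1.45, FDR 1.50e-05). Without the third WT library 2 were higher, and without it or the first or the third slow/slow one 4 were lower.

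Core pluripotency genes changed in both directions. Of 13 core genes 4 were higher and 2 lower with a median of 0.14. The 2 lower calls, Sox2 and Tdgf1, were lost when any 1 ESC library was left out. Sox2, a transcription factor of ESCs and neural progenitors, measured 379.9, 387 and 387 CPM in WT and 323, 327 and 326 CPM in slow/slow cells (-0.24 ± 0.09, FDR 0.0449). Tdgf1, a co-receptor for Nodal, measured 739, 754 and 723 against 534, 604 and 556 CPM (-0.39 ± 0.15, FDR 0.0399). The groups did not overlap in either gene although the differences were small. Lin28a, which blocks the maturation of let-7 microRNAs, moved far more, from 31.8, 35.7 and 36.8 to 155, 179.9 and 162 CPM (2.25 ± 0.26, FDR 1.18e-06). Utf1, a chromatin protein of pluripotent cells, rose from 12.7, 16.1 and 16.6 to 34.1, 43.6 and 31.7 CPM (1.27 ± 0.17, FDR 7.91e-06), and Dppa4 rose by 0.57 (FDR 0.00518).

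Of 17 naive pluripotency genes 1 was higher (5.88%) and 4 were lower (23.5%), with a median of -0.14. Over all genes 17.0% were higher and 21.0% lower, so that the share of falls was near that background. Esrrb, an orphan nuclear receptor of the naive network, measured 1378, 1352 and 1506 CPM in WT and 1053, 1060 and 1028 CPM in slow/slow cells (-0.43 ± 0.13, FDR 0.00905). Tcl1, a co-activator of AKT, measured 165, 175 and 192 against 97.2, 108 and 102 CPM (-0.79 ± 0.17, FDR 7.28e-04). Nr0b1, another nuclear receptor of this network, measured 139, 149.9 and 157 against 89.9, 101 and 92.6 CPM (-0.65, FDR 9.17e-04). In these 3 genes every slow/slow library lay below every WT library. The member that rose was Tcea3, a transcription elongation factor of the TFIIS family (23.8, 27.8 and 30.0 against 51.1, 57.5 and 50.4 CPM, 0.96 ± 0.16, FDR 7.31e-05), and Klf4 was not called (-0.07, FDR 0.882).

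The genes of formative and primed pluripotency had 6 of 15 members higher, 2 lower and a median of 0.42, with 4 higher without the third WT library. Among those that rose were Lef1, described above, and Sox3 and Sox4, factors of the SOX family. Sox3 measured 1.81, 2.27 and 2.21 CPM in WT and 6.22, 5.42 and 5.51 CPM in slow/slow cells (1.46 ± 0.42, FDR 0.00813), and Sox4 rose by 0.95 (FDR 8.30e-06). The groups did not overlap in Sox3. Otx2 (0.00, FDR 1.0) and Fgf5 (-0.75, FDR 0.228), which lead the list, were not called.

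Among the lineages outside pluripotency, genes of the two-cell embryo rose together: 13 of 16 tested members were higher and 0 lower, with a median of 1.90, and the same count was found without any 1 library. Zscan4d measured 1.14, 0.803 and 1.08 CPM in WT and 6.22, 6.73 and 6.81 CPM in slow/slow cells. Gm8300 measured 5.09, 3.93 and 4.1 against 17.8, 15.8 and 17.3 CPM (1.95 ± 0.32, FDR 6.24e-05). The deubiquitinase genes Dub3 (1.81, 1.29 and 1.47 against 6.6, 6.89 and 6.29 CPM, 2.10), Dub1 (1.56) and Dub1a (1.38) rose as well. The members not called were Gata2, Tdpoz3 and Zfp809. Many of these genes have near-identical copies among which reads could be split, so that single values are uncertain, and in ESC cultures such genes are known to be active in a small share of cells.

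In the neuronal list 7 of 19 members were higher and 2 lower, with a median of 0.87. Besides Gap43, Elavl3 and Crmp1, the intermediate filament gene Ina measured 7.19, 6.83 and 7.92 CPM in WT and 21.3, 21.8 and 20.8 CPM in slow/slow cells (1.54 ± 0.34, FDR 0.00128). Stmn3, a microtubule-binding protein of neurons, fell from 35.4, 38.7 and 45.4 to 14.3, 18.9 and 14.6 CPM (-1.32 ± 0.26, FDR 4.62e-04), so that the list did not move as a whole. Of 18 neural progenitor genes 5 were higher and 1 lower (median 0.22), and the lower call was lost without any 1 library. Pax6, a homeobox factor of the neural tube, was at 0.228, 0.172 and 0.162 CPM in WT and 0.882, 1.27 and 0.774 CPM in slow/slow cells (2.36 ± 0.40, FDR 1.01e-04). Nes, the intermediate filament of neural stem cells, went from 19.3, 18.8 and 18 to 32.2, 29.1 and 29.9 CPM (0.70 ± 0.13, FDR 2.99e-04). The only called marker among the 5 fixed for neurons was Tubb3 (1.52 ± 0.32, FDR 7.69e-04), which lies on chromosome 8, and the part of a few differentiating cells in these values was not tested.

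Genes of the primitive streak and mesendoderm went both ways, with 5 of 20 higher, 4 lower and a median of 0.02, or 0.09 without the third WT library. T, the Brachyury factor of the streak, measured 1.64, 1.66 and 1.55 CPM in WT and 5.4, 6.3 and 5.67 CPM in slow/slow cells (1.84 ± 0.20, FDR 3.56e-07). Fgf17 measured 3.04, 3.64 and 3.81 against 13.7, 15.7 and 13.3 CPM (2.03 ± 0.19, FDR 5.17e-08). Both rose with no overlap, whereas Gsc fell and Mixl1 was not called (0.94, FDR 0.0626). For primitive endoderm, the extraembryonic lineage beside the epiblast, 0 of 19 members were higher and 6 lower, with a median of -0.84, or -0.51 without the third WT library. Gata6, its early transcription factor, measured 2.52, 2.61 and 2.62 against 0.791, 0.859 and 0.867 CPM (-1.62 ± 0.38, FDR 0.00174). Lama1, a laminin chain, measured 184, 173 and 172 against 100.5, 87.9 and 85.3 CPM (-0.95, FDR 0.0155), and Gata4 was not called (0.23, FDR 0.528).

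The remaining lineage lists were those of trophectoderm, mesoderm, the Hox genes and the germline. In trophectoderm 3 of 15 were higher and 3 lower, with a median of -0.30, or -0.15 without the third WT library, and 2 were lower without any library but the first WT one. Cdx2, its caudal homeobox factor, rose from 3.55, 3.36 and 3.77 to 6.29, 8.0 and 5.88 CPM (0.92 ± 0.17, FDR 2.75e-04). In mesoderm, cardiac and blood genes 1 of 18 was higher and 3 were lower, or 1 to 2 and 1 to 3 without 1 library. In Hox genes 0 of 28 were higher and 4 lower, or 2 to 3 lower without 1 library, with Hoxb13 at -1.79. Their median was 0.26, of the other sign than the calls, and in a fit of the ESC samples alone 9 were higher and 5 lower. Genes of the germline had 5 of 22 higher and 10 lower with a median of -0.56, and 3 were higher without the third WT, the first slow/slow or the third slow/slow library. Stra8, the retinoic acid target of meiotic entry, measured 135, 128 and 134 CPM in WT and 31.6, 27.9 and 30.4 CPM in slow/slow cells (-2.14 ± 0.34, FDR 4.00e-05). Hormad1, a protein of meiotic chromosome axes, measured 14.6, 13.2 and 13.4 against 2.6, 3.23 and 2.82 CPM (-2.25 ± 0.32, FDR 1.25e-05). Fkbp6 (-1.83) and Mael (-1.31), which protect the germline from transposons, fell with them.

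Cholesterol synthesis and uptake was the metabolic list in which most members rose. Of 21 tested genes 17 were higher and 0 lower, with a median of 0.56, and 16 to 18 were higher without 1 library. Idi1, an isomerase that makes the isoprenoid building block, measured 85.0, 92.0 and 66.8 CPM in WT and 217, 219 and 221 CPM in slow/slow cells (1.43 ± 0.12, FDR 2.45e-08). Dhcr7, the enzyme of the last step to cholesterol, measured 61.1, 61.2 and 71.1 against 143, 146 and 140.4 CPM (1.15 ± 0.11, FDR 9.54e-08). Lss, which closes the sterol rings, measured 76.2, 76.8 and 85.4 against 155, 159 and 154 CPM (0.97 ± 0.13, FDR 7.09e-06). These enzymes moved by about 2-fold with the slow/slow libraries close to each other. Insig1, which retains the sterol sensor in the endoplasmic reticulum, rose from 176, 182 and 176 to 305, 316 and 306 CPM (0.80 ± 0.12, FDR 2.98e-05). The members not called were Ebp (0.25), Fdft1 (0.05), Ggps1 (0.06) and Mvk (0.26).

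Lysosomal and autophagy genes went the other way, with 0 of 25 higher, 13 lower and a median of -0.47, and 12 lower without any 1 library. Hexa, a subunit of the lysosomal hexosaminidase, measured 310.3, 298 and 353 CPM in WT and 98.7, 99.6 and 94.1 CPM in the mutant (-1.72 ± 0.15, FDR 2.54e-08). The cathepsin protease Ctsl measured 483, 473 and 492 against 221, 241 and 230.3 CPM (-1.07 ± 0.12, FDR 5.67e-07), and Psap, the precursor of the saposins, 798, 797 and 906 against 429.5, 413 and 425 CPM (-0.98 ± 0.13, FDR 3.41e-06). Gpnmb, a membrane glycoprotein of lysosomes and melanosomes, was the member with the largest fall, from 11.0, 11.6 and 11.5 to 1.29, 1.55 and 1.21 CPM (-3.06 ± 0.29, FDR 9.64e-08). The cathepsin D gene Ctsd measured 608, 604 and 716 against 296, 337 and 295 CPM (-1.06 ± 0.19, FDR 1.62e-04), in a gene that overlaps Gm49369 on the same strand.

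The promoter of Ctsd, a lysosomal gene that fell, was chosen because it holds the motif known as the lysosomal gene element of TFEB. Any part of TFEB in the falls was not tested. The sequence comes from RefSeq on GRCm38.p6 (chr7:142387778-142388077, minus strand), from 250 bases before to 50 after the start, and capitals mark the matches of CACGTGAC.
Ctsd promoter: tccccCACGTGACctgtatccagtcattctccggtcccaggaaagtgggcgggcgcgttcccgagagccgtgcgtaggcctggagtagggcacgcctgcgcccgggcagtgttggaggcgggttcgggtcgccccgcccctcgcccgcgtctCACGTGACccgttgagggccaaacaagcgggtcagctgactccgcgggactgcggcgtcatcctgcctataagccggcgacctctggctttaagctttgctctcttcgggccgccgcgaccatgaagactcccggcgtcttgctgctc
The motif, searched on both strands, was found in 3 of the 18 lysosomal members with a promoter sequence (16.7%), namely Ctsa, Ctsd and Gla, and in 689 of 27025 genes (2.55%). The 18 members were counted whether or not they fell. For the cholesterol list, the letters TCACNCCAC of the sterol regulatory element were found in 0 of 14 promoters, against 388 of 27025 genes (1.44%). A match of letters is a description and not a binding site.

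Genes of the responses to amino acid shortage and unfolded proteins were more often lower, with 1 of 28 higher, 12 lower and a median of -0.33, 2 higher without the third WT library, and 9 to 12 lower without 1 library. Ddit3, the CHOP factor of this response, measured 51.3, 47.6 and 60.0 CPM in WT and 13.2, 14.0 and 11.4 CPM in slow/slow cells (-2.04 ± 0.35, FDR 1.16e-04), though it overlaps Mars. Ddit4, an inhibitor of mTORC1, measured 112, 111 and 131 against 51.0, 48.4 and 42.4 CPM (-1.32 ± 0.13, FDR 1.34e-07). Cth, which makes cysteine from cystathionine, measured 248, 249.9 and 244 against 112, 118 and 115 CPM (-1.10 ± 0.16, FDR 1.84e-05). In these 3 genes the slow/slow level was below 0.5 of the WT level in every library. Slc7a11, the cystine transporter, fell as well (-1.36, FDR 9.47e-04). Heat shock proteins did not move as a group, with 2 of 18 higher and 2 lower.

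Glycolysis had 1 of 22 genes higher and 7 lower with a median of -0.26, or -0.14 with the GC trend removed and -0.15 without the third WT library, and 5 to 6 lower without 1 library. The glucose transporter gene Slc2a3 measured 3216, 3003 and 3287 CPM in WT and 1793, 1762 and 1725 CPM in slow/slow cells (-0.85 ± 0.14, FDR 5.30e-05), and Ldhb (-0.92) and Pfkp (-0.78) fell. Hypoxia targets had 1 of 18 higher and 6 lower with a median of -0.34. Vegfa, the growth factor of blood vessels, measured 73.8, 69.0 and 73.2 against 31.6, 26.6 and 28.1 CPM (-1.32 ± 0.26, FDR 3.86e-04), and Epas1, which encodes HIF2-alpha, 47.3, 44.3 and 41.6 against 14.3, 12.9 and 13.3 CPM (-1.72). Both fell with no overlap between groups. The rising member of the glycolysis list was Pdk1, the kinase that holds pyruvate out of mitochondria, from 14.0, 16.2 and 15.4 to 41.7, 40.7 and 37.9 CPM (1.40 ± 0.16, FDR 1.13e-06).

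Genes of the mitochondrial chromosome were higher with and without the third WT library, whereas the counts of nuclear genes of oxidative phosphorylation depended on single libraries. Of the 12 genes encoded on the mitochondrial chromosome 8 were higher and 0 lower, with a median of 0.58, and they took 3.28, 3.29 and 3.02% of all counts in WT and 3.49, 3.62 and 3.72% in slow/slow libraries. Their median was 0.32 with the GC trend removed and 0.63 without the third WT library, where 66.7% were again higher. Among nuclear genes of oxidative phosphorylation 19 of 71 were higher and 4 lower with a median of 0.09. Without the third WT library 25 were higher and 0 lower (median 0.19), and without the second slow/slow library 11 and 7, while 0 or 1 were lower without the second WT, the first slow/slow or the third slow/slow library. Sdha, the flavoprotein of complex II, measured 274, 276 and 290.4 CPM in WT and 409, 445 and 419 CPM in slow/slow cells (0.60 ± 0.07, FDR 8.37e-07).

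Calls among ribosomal protein genes turned on the library used. Of 72 cytoplasmic ribosomal protein genes 7 were higher and 2 lower (median 0.09), 15 and 0 without the third WT library (median 0.21), 13 and 0 without the first slow/slow library, and 5 and 3 without the second slow/slow library. Of 72 mitochondrial ribosomal protein genes 16 were higher and 6 lower (median 0.12), 17 and 3 without the third WT library (median 0.21), 7 and 7 without the second slow/slow library, 9 and 7 without the first and 10 and 5 without the second WT library. Mrpl16 rose by 0.64 and Mrpl38 fell by 0.62. Proteasome subunits had 4 of 36 higher and 0 lower, or 2 to 6 higher and 0 to 1 lower without 1 library.

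Genes that act on RNA rose in part. Of 17 SR and SR-related proteins, which bind exons and help to define them, 11 were higher and 0 lower with a median of 0.31. Without the third WT library 6 were higher, and the median was 0.25 with the GC trend removed. Srsf6 measured 408, 412 and 422 CPM in WT and 512, 543 and 539 CPM in slow/slow cells (0.36, FDR 0.00815), and Srsf3 143, 143 and 119 against 177, 187 and 190.1 CPM (0.46). The third WT library was the lowest for Srsf3 and the groups did not overlap in either gene. Of 24 hnRNP proteins, which often oppose SR proteins, 6 were higher and 1 lower (median 0.17), 0 lower without the third WT library, and 16 and 2 in a fit of the ESC samples alone. Hnrnph1 rose from 342, 347 and 289 to 543, 505 and 541 CPM (0.70 ± 0.09, FDR 3.31e-06), and Pcbp4 was lower (-0.40). Of 17 factors of nonsense-mediated decay 6 were higher, among them Casc3 (0.45), Smg5 (0.48) and Magohb (0.65), and 1 was lower, Dhx34 (-0.35), or 2 without the third WT library.

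Splicing factors with tissue-restricted expression split evenly, with 6 of 28 higher, 6 lower and a median of 0.17. Elavl3, Elavl4 (1.36) and Elavl2 (0.96), the neuronal members of the ELAV family, rose. Mbnl2, a muscleblind protein, fell from 35.4, 28.0 and 26.1 to 14.6, 9.84 and 13.1 CPM (-1.26 ± 0.37, FDR 0.00911), and Celf2 (-1.07), Rbm24 (-1.08) and Nova1 (-0.97) were lower. The 3 ELAV genes rose while Mbnl2 and Celf2 fell.

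Among 44 transcription elongation factors 14 were higher and 3 lower with a median of 0.11. Whsc2, a subunit of the negative elongation factor NELF, measured 91.5, 93.1 and 101 CPM in WT and 172, 166 and 164 CPM in slow/slow cells (0.81 ± 0.11, FDR 5.39e-06). Hexim1, which holds the kinase P-TEFb inactive, measured 86.6, 90.9 and 92.2 against 151, 166 and 150 CPM (0.79 ± 0.16, FDR 3.92e-04), and Supt16h, of the histone chaperone FACT, rose by 0.61. Both of the first 2 limit the release of the polymerase from pausing. The 3 lower members were Mllt3 (-0.58), Ell2 (-0.37) and Cdk9 (-0.24), of which Cdk9 is the kinase of P-TEFb and the others belong to the super elongation complex. Without 1 library 11 to 14 were higher and 1 to 3 lower, with 1 lower without the first or the third slow/slow library. Of 9 RNA polymerase II subunits tested, Polr2d was higher (0.41, FDR 0.0485), a call that held without the third WT or the first slow/slow library but not without any other 1, and Polr2e was lower (-0.45, FDR 0.00104).

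Replication-dependent histone genes had 10 of 21 tested members higher, 0 lower and a median of 0.44, or 0.79 without the third WT library. Without 1 library 7 to 9 were higher. The other 25 of 46 members lay below the filter on low counts. The main transcripts of these genes are known to carry no poly(A) tail. Hist1h1c, a linker histone, was among those that rose (0.71, FDR 0.0171). Of 306 numbered zinc finger genes 89 were higher and 29 lower with a median of 0.13, or 0.08 with the GC trend removed. Without the third slow/slow library 17 of them were lower. Zfp521 rose from 1.6, 0.975 and 1.65 to 6.6, 5.3 and 5.6 CPM (2.02) and Zfp951 fell (-1.37). DNA replication and mitosis genes had 4 of 33 higher and 0 lower, 2 higher without the third WT library and 15 higher and 2 lower in a fit of the ESC samples alone, and Ccne2, the cyclin of S-phase entry, rose from 8.86, 9.58 and 7.92 to 28.9, 27.5 and 26.3 CPM (1.65 ± 0.18, FDR 4.39e-07).

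Lists of DNA methylation, Polycomb and imprinted genes held calls in both directions. The shares higher and lower were 15.8% and 21.1% for DNA methylation and 7.41% and 14.8% for Polycomb genes. They were 25.7% and 17.1% for imprinted genes, and 17.0% and 21.0% over all genes. In the DNA methylation machinery 3 of 19 were higher and 4 lower: Dnmt3a rose (0.55), whereas Dnmt3l (-1.39), its catalytically inactive partner, Uhrf1 (-0.67) and Tet3 (-0.53) fell. In Polycomb complexes 2 of 27 were higher and 4 lower, with Suz12 at -0.41. Imprinted genes had 9 of 35 higher and 6 lower, with Ndn (1.68), Sgce (1.58) and Peg3 (0.94) up and Mest down. These 4 genes are all expressed from the paternal allele and so did not share a direction.

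Extracellular matrix genes were more often lower. Of 36 collagen chains 3 were higher and 13 lower with a median of -0.52, and 10 to 13 were lower without 1 library. Col1a1, a chain of fibrillar collagen, fell by 1.55 on the log2 scale and Col7a1 by 0.94. Among 14 fibroblast genes 1 was higher and 5 were lower, with Pdgfrb, the PDGF receptor, at -1.40 and Fn1, fibronectin, at -0.55. Fbln2, an extracellular matrix protein, measured 6.88, 7.09 and 7.83 CPM in WT and 0.882, 0.88 and 1.05 CPM in slow/slow cells (-2.96 ± 0.15, FDR 1.31e-11). All slow/slow libraries were thus near or below 1 CPM for Fbln2. The fibroblast markers Postn, Dcn and Lum were under 0.1 CPM in all 6 libraries. Epithelial adhesion genes had 1 of 22 higher and 5 lower (22.7%, against 21.0% of all genes), or 2 to 3 lower without 1 library. The desmosomal plakophilin Pkp2 was up from 16, 15.6 and 15.8 to 46.3, 53.6 and 47.4 CPM (1.63) and the integrin Itgb4 down (-0.99).

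Targets of p53 had 3 of 29 members higher and 9 lower with a median of -0.29. Without 1 library 1 to 2 were higher and 5 to 10 lower, the fewest without the third slow/slow library. Trp53inp1, a stress protein that acts with p53, measured 301, 292 and 209.8 CPM in WT and 122, 106 and 114 CPM in slow/slow cells (-1.23), and Sesn2 (-0.75) and Tnfrsf10b (-1.03), a death receptor, were lower. The third WT library was the lowest of its group for Trp53inp1 but stayed above every slow/slow library. In the BCL2 family of apoptosis 4 of 19 were higher and 7 lower, or 2 and 5 without the third WT or the third slow/slow library. Bmf, a BH3-only activator of cell death, fell from 15.2, 14.1 and 16 to 5.27, 4.15 and 4.15 CPM (-1.74), Hrk fell (-1.11) and Bok rose (1.06).

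The last lists were those of interferon, the cytoskeleton and immediate early genes. Of 30 interferon-stimulated and antigen presentation genes 3 were higher and 6 lower, or 4 lower without the first or the third slow/slow library. Ddx58, the RIG-I sensor of viral RNA, measured 7.61, 7.55 and 7.73 CPM in WT and 24.9, 28.5 and 24.9 CPM in slow/slow cells (1.77, FDR 0.00237), whereas Oasl1 fell (-1.70). Of 28 genes of the actin cytoskeleton and YAP targets 4 were higher and 3 lower, and 2 were higher without any library but the third of each group. Of 17 immediate early genes 1 was higher, the zinc finger factor Klf6 (0.88), and 1 lower, Ier5 (-1.20), a call kept only without the first WT or the second slow/slow library. Of 23 clustered protocadherins, the cell identity molecules of neurons, 2 were higher and 0 lower, and their median was 1.22 with 21 members not called. In a fit of the ESC samples alone, which called 7734 genes, the falls numbered 20 among lysosomal genes, 17 among p53 targets and 11 among primitive endoderm genes, and the rises 12 among neuronal genes.

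**Figure D2:**
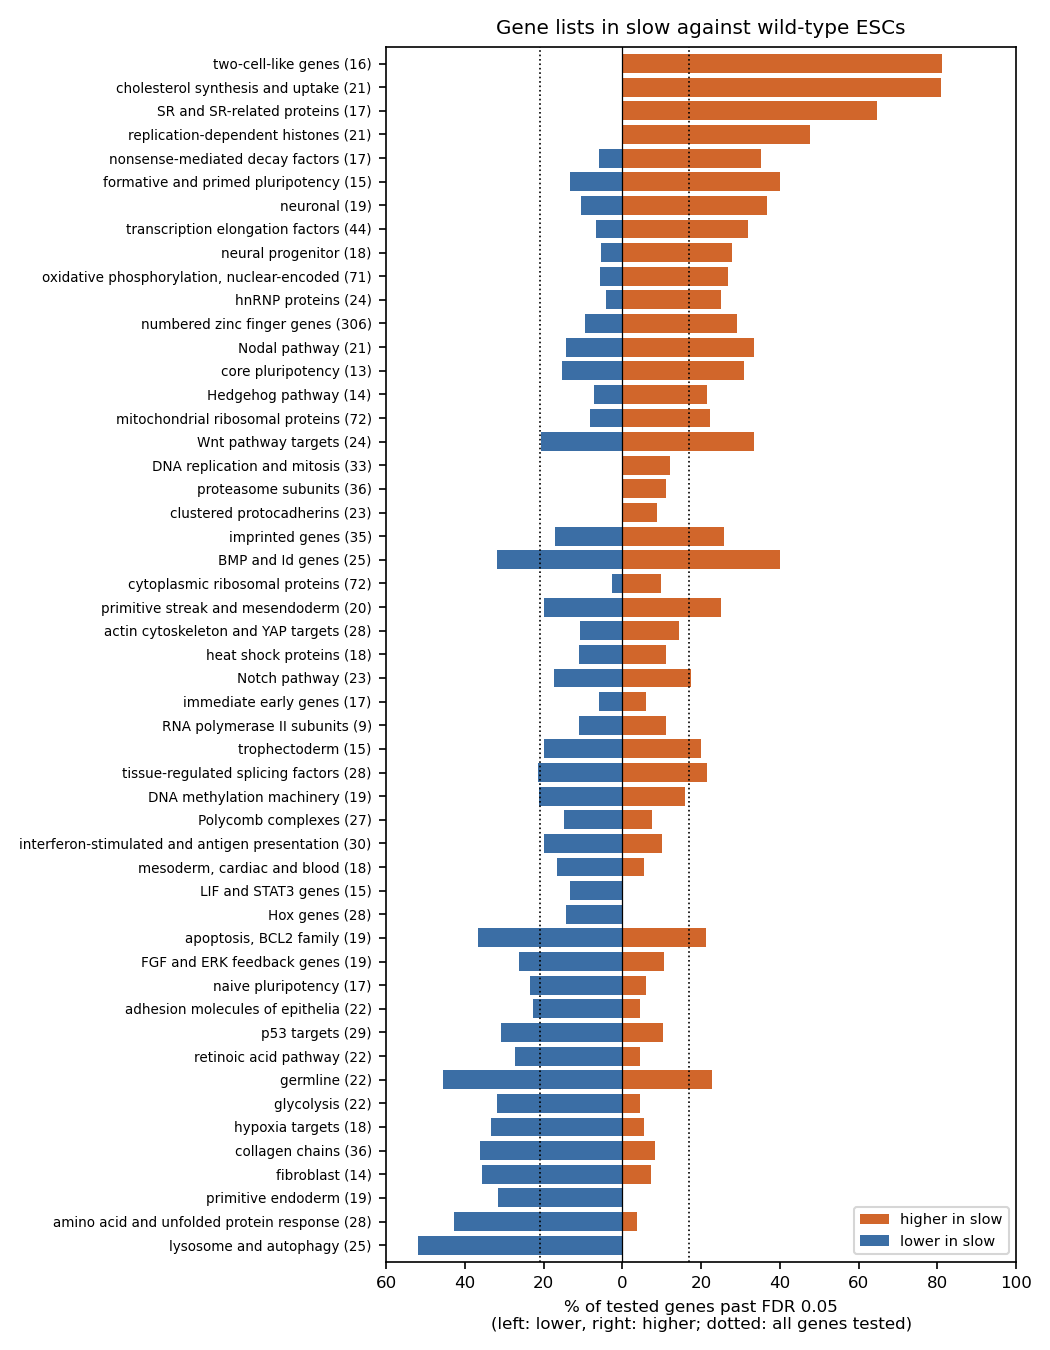
Percent of the tested members of each gene list (number in brackets) that were higher (right) or lower (left) in slow/slow ESCs at an FDR under 0.05, with dotted lines at the shares over all 14810 genes (17.0% higher, 21.0% lower). Two-cell-like and cholesterol genes have the highest shares of rises and lysosomal genes a share of falls above the dotted line with no rise.

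Gene length and base composition moved with the direction of change. Of 480 genes that span over 300 kb, 8.96% were higher and 30.8% lower with a median of -0.35, against 14.7% and 15.9% with a median of 0.00 among 3885 genes of up to 10 kb. The median of the longest genes was -0.33 with the GC trend removed and -0.36 without the third WT library. Of the longest genes, those with a mean of at least 5 CPM lay 0.09 to 0.15 (log2) above their mean over the 6 libraries in each WT library. In each slow/slow library they lay 0.04 to 0.15 below it. By number of exons, 13.3% of single-exon genes and 26.7% of genes with over 20 exons were lower.

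Genes of low GC content were more often higher. In transcripts of up to 42% GC, 29.6% of 1744 genes were higher and 8.43% lower, with a median of 0.18. Above 57% GC, 10.5% of 2048 genes were higher and 24.7% lower, with a median of -0.15. Without the third WT library, whose own base composition stood apart, the shares higher were 22.6% and 12.4% and the medians 0.13 and -0.05. The part of library preparation in this trend was not tested. By level, genes of up to 1 CPM were seldom higher (5.6%) and had a median of -0.37, whereas genes above 100 CPM had a median of 0.08. Among chromosomes, the largest shares of rises outside the mitochondrial one were on chromosome 13 (24%) and X (23.5%), and the share of falls reached 24.4% on chromosome 7.

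**Figure D3:**
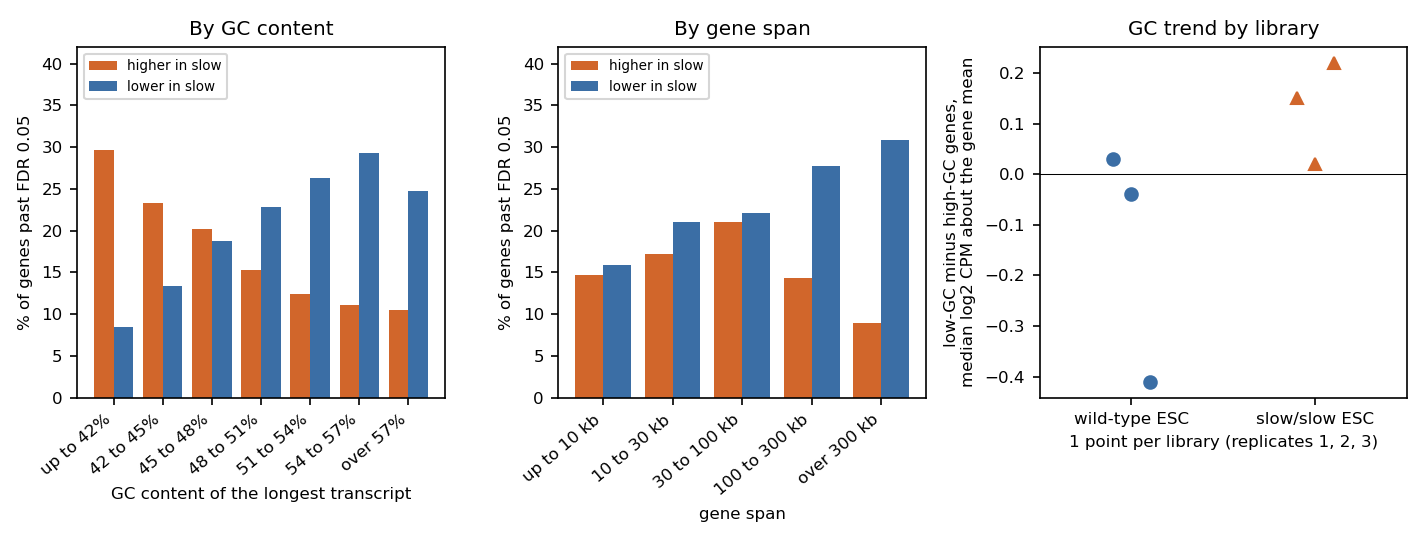
Percent of genes higher and lower in slow/slow ESCs (FDR under 0.05) by the GC content of the longest transcript (left) and the genomic span (middle). The right panel gives, with 1 point per library, the median log2 CPM about the gene mean of low-GC minus high-GC genes. It covers genes with a mean of at least 5 CPM. Rises become fewer with GC content (29.6% to 10.5%) falls become more with span (15.9% to 30.8%), and the third WT library lies at -0.41.

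Whether these changes belonged to ESCs was tested as the difference between the ESC change and the mean of the changes at the 3 later stages in the same model. It passed an FDR of 0.05 for 3587 of 14810 genes (24.2%) and for 2232 of the 5639 genes changed in ESCs (39.6%). The second share is favoured by the choice of these genes, because the ESC change is part of the tested difference. All 14 named rises and 12 of the 15 named falls differed, in genes that had been chosen for large ESC changes. Lefty2 (2.69) and Lefty1 (2.40) had positive mean log2 changes at the later stages that were smaller than in ESCs. Smaller later changes of the same direction were also seen in Miip (1.77), Ttll4 (1.71), Evc (1.59), Crmp1 (1.49), Evc2 (1.39) and Fgf1 (1.23). Among the falls they were seen in Tuba3a (-1.77), Tmem40 (-1.76), Lcp1 (-1.26) and Dner (-1.15). A difference between stages is thus not the absence of a later change. Zscan4d (-0.17), P2rx7 (0.24), Capn6 (0.38), Htra1 (-0.26) and F3 (-0.07) had mean later changes near 0. Ceacam20 (-3.49), Mest (-3.84) and Aox3 (-3.39) had mean later changes close to those in ESCs, and for these the difference did not pass the test.

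**Figure D4:**
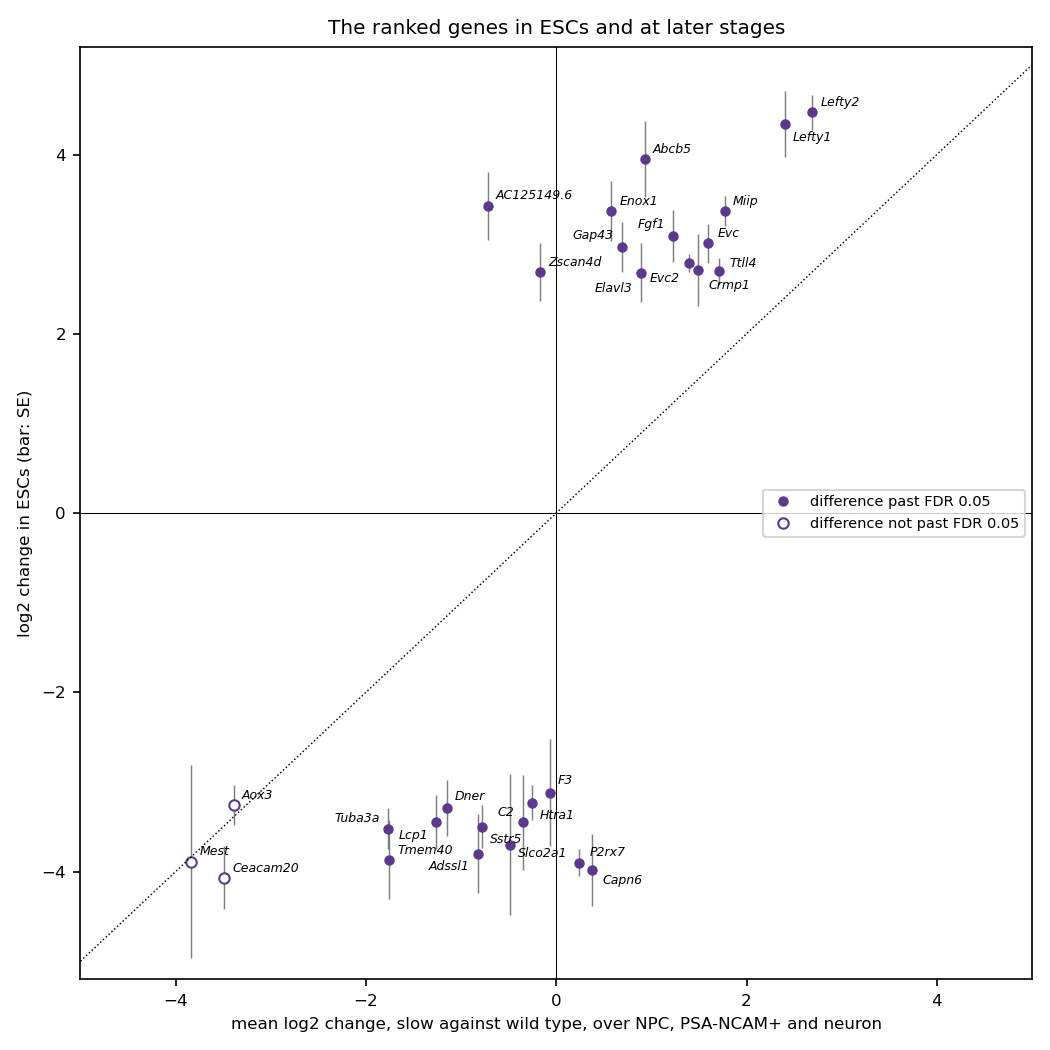
Log2 change in slow/slow ESCs (y axis, bars give the SE) against the mean log2 change at the 3 later stages (x axis) for the 14 named rises and 15 named falls, with a dotted diagonal of equal change. Most points lie nearer to 0 on the x axis, and Ceacam20, Mest and Aox3 lie near the diagonal.

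Splicing was measured as PSI, the percent of transcripts that include an exon, keep an intron or use a given alternative splice site. An event was called changed when the mean PSI differed by over 10 points between groups and the posterior probability of that sign was over 0.95. Of 18250 exons 145 (0.795%) changed, in 140 genes, of which 65 were included more (0.356%) and 80 less (0.438%) in slow/slow ESCs. The median number of reads behind an exon was 192. With a limma test on the empirical logit 67 exons passed, but not those of Numb, Taz, Ppil5, Cdc42bpa and Apbb2 named below. The 20 exons with the largest changes, named below, did not overlap between groups and were called in each of the 6 analyses without 1 library. They were chosen among called exons for the size of this change, which favours both. The share without overlap over all exons is not given here.

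The exons of tropomyosin 1, Tpm1, were the clearest exchange. Its product lies along actin filaments, and the gene carries a pair of mutually exclusive exons of 76 nt each. One (chr9:66880273-66880348 in mm9) was included in 37.5, 39.5 and 39.4% of WT and 73.4, 80.9 and 77.9% of slow/slow transcripts, a rise of 38.6 points. The other (chr9:66879758-66879833) went from 63.1, 58.1 and 62.0% to 26.6, 23.5 and 24.2%, a fall of 36.3 points. The level of the gene was not called changed (-0.20, FDR 0.442). The small GTPase gene Rab6 has a like pair of 106 nt, of which one went from 26.7, 27.8 and 26.5% to 37.2, 38.4 and 39.7% and the other from 69.4, 73.8 and 70.6% to 59.2, 61.5 and 57.7%. In Actn1, the actin crosslinker alpha-actinin 1, an 81 nt exon rose from 28.1, 30.2 and 29.9% to 48.2, 46.3 and 45.9% and its 66 nt counterpart fell from 72.9, 70.4 and 71.0% to 53.2, 53.5 and 53.6%. The pairs of Rab6 and Actn1 were chosen after their values were seen.

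The exons of Tpm1 and Rab6 are shown because each pair is an exchange of duplicated exons that encode alternative versions of a stretch of the protein. They were read from GRCm38, where they were found by their length and the lengths of the flanking introns, and lie at chr9:67032466-67032541 and chr9:67031951-67032026 on the minus strand and at chr7:100629666-100629771 and chr7:100629838-100629943 on the plus strand. All are coding throughout, and capitals mark the bases that differ within a pair.
Tpm1 exon that rose: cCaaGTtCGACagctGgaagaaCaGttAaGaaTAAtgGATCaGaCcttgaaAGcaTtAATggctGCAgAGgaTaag
Tpm1 exon that fell: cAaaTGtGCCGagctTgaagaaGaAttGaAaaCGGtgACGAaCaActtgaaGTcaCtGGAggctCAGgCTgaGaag
Rab6 exon that rose: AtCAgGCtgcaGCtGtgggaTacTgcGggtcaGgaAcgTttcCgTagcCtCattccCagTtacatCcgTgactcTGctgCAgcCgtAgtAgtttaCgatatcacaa
Rab6 exon that fell: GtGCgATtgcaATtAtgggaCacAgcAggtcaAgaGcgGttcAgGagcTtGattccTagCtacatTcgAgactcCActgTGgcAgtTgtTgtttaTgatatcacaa
The Tpm1 exons were identical at 43 of 76 positions (56.6%) and the Rab6 exons at 76 of 106 (71.7%).

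Exons of Exoc1, Pbrm1, Max and Numb were among the others that rose. A 45 nt exon of Exoc1, a subunit of the exocyst that tethers secretory vesicles, went from 11.7, 15.8 and 14.5% to 51.4, 54.3 and 45.0% (36.2 points). A 156 nt exon of Pbrm1, a bromodomain subunit of a SWI/SNF remodeller, went from 52.1, 51.9 and 61.1% to 83.6, 85.1 and 83.6% (29.1 points). A 27 nt exon of Max, the partner of MYC, went from 25.1, 32.9 and 29.7% to 49.1, 52.1 and 58.6% (24.1 points). Each moved from a minority or near an even split towards inclusion. An exon of Numb, the inhibitor of Notch, went from 18.1, 20.6 and 21.0% to 32.2, 55.4 and 41.9% (23.3 points), with a wider spread in slow/slow cells. The other named rises were in Rragb (23.7), Taz (21.3), Golga4 (21.3), Ppil5 (20.6) and Spata5 (20.3).

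The largest falls in inclusion were those of exons of Bptf and Syne2. A 189 nt exon of Bptf, the large subunit of the NURF remodeller, went from 69.1, 62.0 and 63.8% to 18.8, 22.4 and 18% (-45.2 points). A 69 nt exon of Syne2, which links the nucleus to the cytoskeleton, went from 60.0, 62.2 and 64.3% to 29.4, 13.3 and 11.8% (-44.0 points). Both turned from a majority to a minority form. An 81 nt exon of Nfya, the DNA-binding subunit of the CCAAT factor, went from 75, 75.4 and 71.0% to 37.8, 36.5 and 40.5% (-35.5 points), and a 36 nt exon of the transcription factor Nrf1 from 48.7, 54.7 and 45.0% to 21.2, 21.9 and 14.7% (-30.2 points). A 105 nt exon of Dock6, an exchange factor for small GTPases, went from 81.4, 84.9 and 86.4% to 51.7, 41.7 and 49.7% (-36.6 points). A 21 nt exon of the SUMO protease Senp6 went from 66.7, 63.5 and 77.1% to 33.1, 34.1 and 32.9% (-35.7 points). The other named falls were in Apbb2 (-38.8), Cdc42bpa (-34.2) and Csnk1g3 (-31.4, 24 nt). The fewest reads in a library were 19 for the Syne2 exon and 24 for the Apbb2 exon.

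Very short exons, of 27 nt or less, were 9 of the 80 that fell (11.2%), 2 of the 65 that rose (3.08%), 327 of all 18250 tested (1.79%) and 44 of the 1381 with a WT PSI of 10 to 90 (3.19%). Exons that vast-tools classes as microexons were not filtered for junction balance, unlike the other exons. An 18 nt exon of Dst, a linker of cytoskeletal filaments, fell from 38.6, 30.8 and 33.9% to 6.57, 1.94 and 8.41% (-28.8 points). It was chosen after its values were seen. Of the exons that fell 60 (75%) had a length that is a multiple of 3 and so keeps the reading frame, against 32 (49.2%) of those that rose, 40.9% of all tested and 53.1% of those with a WT PSI of 10 to 90. Median lengths were 107 nt for falls, 81.0 nt for rises and 115 nt for all tested. The exons of Exoc1, Max, Senp6 and Dst are shown in full as examples of short exons that changed, at chr5:76557819-76557863 (Exoc1, plus strand), chr12:76961263-76961289 (Max, minus), chr9:80098886-80098906 (Senp6, plus) and chr1:34296742-34296759 (Dst, plus) in GRCm38, with no base capitalized.
Exoc1 exon that rose: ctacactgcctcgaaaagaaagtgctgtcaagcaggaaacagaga
Max exon that rose: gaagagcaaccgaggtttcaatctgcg
Senp6 exon that fell: caatcaggaccgaaaagaaag
Dst exon that fell: ttcttcctgggaaatcag
All 4 are coding throughout and their lengths of 45, 27, 21 and 18 nt are multiples of 3.

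**Figure D5:**
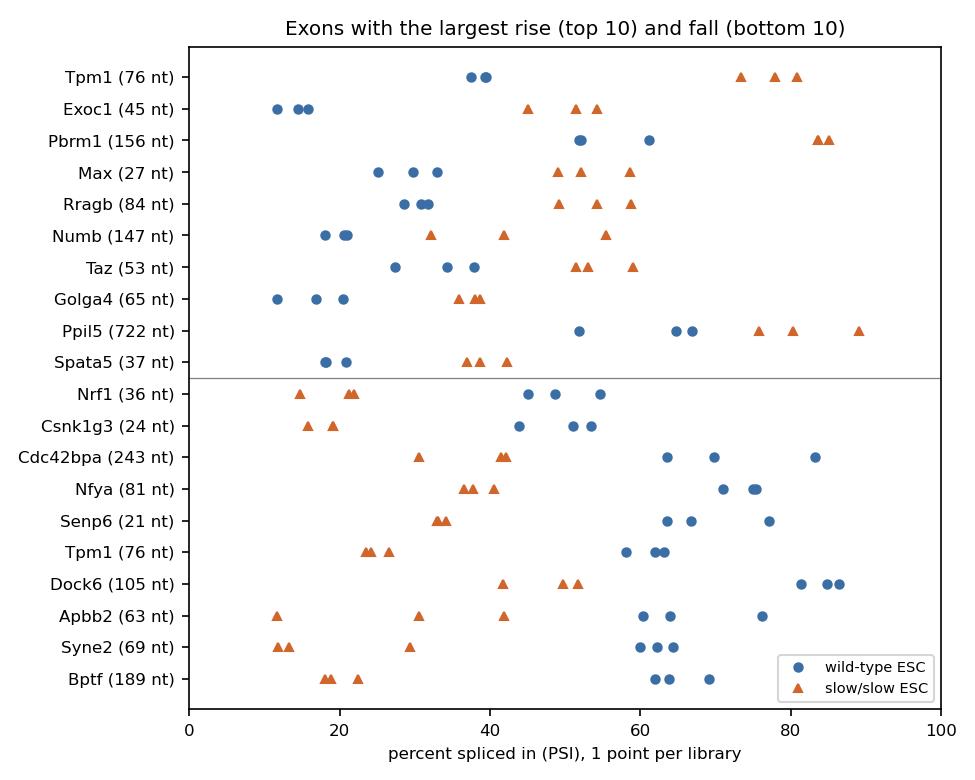
PSI in percent of the 10 exons with the largest rise (upper) and the 10 with the largest fall (lower), with 1 point per library for 3 WT and 3 slow/slow ESC libraries. The groups do not overlap for any exon; the Bptf exon falls from above 60% to about 20% and the Tpm1 exon rises from below 40% to above 70%.

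Of 65309 introns 38 (0.0582%) changed in 35 genes, 29 retained more (0.0444%) and 9 less (0.0138%). Over all introns the shift was the other way, with 35333 below and 23131 above a difference of 0, and a median of -0.04 points. The mean intron PSI was 2.02, 1.89 and 1.59 in the WT and 1.86, 1.7 and 1.72 in the slow/slow libraries, so that the groups overlapped. The median number of reads was 113, and 10 introns passed the limma test.

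Ddit3 was a called intron in a gene whose level also fell by over 2-fold. Its 244 nt intron was retained at 5.59, 6.0 and 4.11% in WT and 24.5, 26.4 and 31.0% in slow/slow cells, a rise of 22.0 points, while its counts fell as given above. An intron of Slc24a5, a cation exchanger of melanosomes, went from 50.8, 38.1 and 44.8% to 82.1, 100 and 88.9% (45.8 points), and one of the membrane protease Adam15 from 10.8, 9.43 and 8.08% to 21.1, 35.0 and 49.3% (25.7 points), with a wide spread in slow/slow cells. The other named rises were in Tead1 (33.7), Pdzk1 (28.3), Phyhd1 (28.3) and B4galnt2 (25.3). In Glt1d1 an intron fell from 21.4, 23.1 and 20.0% to 2.7, 0.7 and 3.09% (-19.3 points) while the gene rose from 21.6, 20.5 and 20.9 to 58.7, 58.9 and 61.7 CPM (1.51). In Uspl1 it fell from 47.0, 45.0 and 39.3% to 23.5, 24.8 and 21.6% (-20.5 points), and the other named falls were in Zfp238 (-34.3), Zmynd8 (-27.8), Fam36a (-18.3) and Sdr39u1 (-15.1). The introns of Pdzk1 and Zfp238 were called in 4 of the 6 analyses without 1 library and the other named introns in all 6. The introns of Ddit3, Glt1d1 and Uspl1 passed the limma test, and those of the other genes of this paragraph did not. The fewest reads in a library were 15 for Tead1, 17 for Slc24a5 and 18 for Zfp238.

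Alternative splice sites changed in 22 of 19567 events (0.112%), in 21 genes, and this count rose to 36, 35 and 34 without the first WT, the first slow/slow or the second slow/slow library. The SR protein gene Srsf5 changed its splice site use from 55.5, 47.1 and 50.0% to 67.2, 68.2 and 75.7% (19.5 points). The other named events were in Herc1 (22.5), Sirt3 (-21.5), Osbpl11 (-20.8) and Mcf2 (-17.9). Each value is for a single site of an event whose sites share the total, so that its sign depends on the site taken. Those of Herc1 and Sirt3 were called in 3 of the 6 analyses without 1 library and the other named events in all 6. With limma 1 event passed, in Dus1l, and none of the named events did.

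Genes with a changed exon were called changed in expression about as often as other genes. Of 139 such genes with a tested level 57 (41.0%) changed, 31 higher and 26 lower, against 39.9% of all genes with a tested exon. Of 33 genes with a changed intron 20 (60.6%) changed, 6 higher and 14 lower, against 39.8% of genes with a tested intron. Of 21 genes with a changed splice site 6 (28.6%) changed, against 38.1%. Changes of at least 2-fold beside a called exon were seen in Syne2, Nup62cl, Ceacam10 and Stra8, and beside a called intron in Glt1d1, Cpne5, B4galnt2, Ddit3 and Pdzk1.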

How the data were processed

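Raw read counts per gene and sample, whole numbers and not normalised, were made and deposited by the authors with vast-tools on mm9. PSI, a percent value per event and sample with the corrected reads behind it, was deposited by the authors in a separate table. The authors' deposited mean RPKM values, log2 fold changes and adjusted p-values were not used. Submitters' processing notes name bcl2fastq 2.17.1.14 and edgeR. Libraries were poly(A)-selected and made with a stranded kit, but strand use in counting was not given in the sources used here, and spliced polyadenylated RNA alone is well covered. Groups came from the labels, the number of unused per-sample columns was 0, and no libraries held identical values.

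Of 22667 listed genes 21553 had counts and 20464 (94.9%) matched the GENCODE vM21 annotation of GRCm38 by identifier. Genes were filtered with filterByExpr, scaled by TMM and tested with edgeR 4.0.16 (R 4.3.3, glmQLFit and glmQLFTest) in 1 model of 8 groups and 24 samples, with 16 residual degrees of freedom and a common biological coefficient of variation of 0.164. The FDR threshold was 0.05. Exons needed sufficient coverage and balanced junctions, and introns at least 15 reads and a balance p of at least 0.05, in all 6 samples. Events that vast-tools classes as microexons were exempt from the filter on junction balance, which the study's methods applied to them as well. For each group, beta posteriors of the reads that include or skip an event were pooled over replicates after the scheme of vast-tools, with thresholds of 10 points and 0.95, the latter being how the probability limit in the study's methods was understood. The scripts were tested on simulated data. Splicing coordinates are in mm9 as deposited and were not converted. Exon sequences were read from GRCm38 where length and flanking intron lengths matched, and promoters came from RefSeq.

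Named genes were taken from the 15 largest rises, of which 14 are reported here, and the 15 largest falls called in all fits with at least 5 CPM in the higher group, up to 5 called members of each list with the largest changes, the first 2 members of lists of transcription factors, ligands and receptors, and splicing factors changed at least 2-fold. Named events were the 10 exons and 6 introns each way and 5 splice sites with the largest changes. Members, the 51 lists and rules were chosen with earlier results of these data known, and lists were described by counts without a test. Other names in the text complete a list's calls or were chosen after their values were seen. Alternatives were other scalings, filters, DESeq2 1.42.0, the ESC samples alone, each library left out, limma 3.58.1 for splicing, and, chosen after seeing the data, removal of the GC trend and omission of the PSA-NCAM+ stage.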

Additional observations from a re-analysis of the deposited data

Results flagged for a closer look

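For each of the following genes the change in slow/slow ESCs differed from the mean change at the 3 later stages by the edgeR contrast (FDR under 0.05), and the difference, ESC minus later, is given on the log2 scale. The genes were chosen for large ESC changes, which favours such differences.

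Of the genes that rose, the differences were 4.15 for AC125149.6, 3.02 for the transporter gene Abcb5, 2.87 for the two-cell gene Zscan4d, 2.78 for Enox1, 2.28 for Gap43, 1.95 for Lefty1, 1.86 for Fgf1, 1.79 for Elavl3, 1.78 for Lefty2, 1.60 for Miip, 1.42 for Evc, 1.40 for Evc2, 1.22 for Crmp1 and 0.99 for Ttll4.

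Of the genes that fell, they were -4.36 for Capn6, -4.14 for the ATP-gated channel gene P2rx7, -3.21 for Slco2a1, -3.11 for C2, -3.05 for F3, -2.98 for Adssl1, -2.97 for Htra1, -2.72 for Sstr5, -2.20 for Lcp1, -2.14 for Dner, -2.12 for Tmem40 and -1.75 for Tuba3a.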

How the results depend on the processing

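The 5639 genes changed in ESCs became 8496 without the PSA-NCAM+ stage and 1927 with a 2-fold minimum, and ranged from 4751 to 4909 without 1 library. Those differing from later stages, 3587, became 1459 with the 2-fold minimum and 2887 to 3133 without 1 library. Changed exons, 145, became 70 above 15 points, 81 at a posterior of 0.99 and 67 by limma, and 161 to 180 without 1 library. Changed introns, 38, became 16 at 0.99, 24 with at least 40 reads and 10 by limma, and 43 to 57 without 1 library. Changed splice sites, 22, became 7 above 15 points, 4 at 0.99 and 1 by limma, and 23 to 36 without 1 library. The cause was not tested, beyond the stricter thresholds themselves. The other gene-level alternatives gave 5399 to 7734 changed genes, and the share of rises among them 41.7 to 48.7%.

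Same-numbered libraries did not deviate together (correlations of 0.068, -0.055 and -0.069), and 2 of 6 samples were closest to their own number. With 3 replicates per group these values cannot exclude a pairing by number, and the main fit used none. With the replicate number as a block 6735 genes changed, 5479 of them shared, 4521 differed from later stages, and limma with the block called 72 exons, 39 introns and 4 splice sites.

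Of 4107 values recomputed for 257 named genes, 3833 kept direction and call, 259 lost the call, 15 gained it and 0 reversed. Most of these genes were named because the main fit called them, and the ranked ones because every fit without 1 library did. Agreement was thus favoured by the choice of genes. Of the lost calls, 116 came from the 2-fold minimum. Removing the GC trend moved 61 of 99 medians of lists and classes by more than the replicate spread, and the sign of the small medians of Wnt targets (0.11), Polycomb (0.01) and BCL2 genes (0.02) turned. Genes of few reads lose splicing events to the coverage filters.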
